A study of Mus musculus with 2 samples.

Results

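The accessible sites inside coding exons numbered 1177 among the 114395 accessible sites that both replicates shared on the 19 mouse autosomes. A shared site was a merged interval that held a peak of each replicate, with an overlap of at least 1 bp. It was counted here when its centre lay in the coding sequence (CDS) of a protein-coding transcript of GENCODE M21 with every protein-coding transcript start over 1000 bp away. The cells were adipocytes made by differentiating 3T3-L1 cells, a mouse preadipocyte line that accumulates lipid droplets after hormonal induction, and were collected at day 8. DNase-seq, which maps open chromatin by the cuts of the endonuclease DNase I, had been run on 2 biological replicates of this 1 group. The labels gave no genotype or added agent, and they named the strain C57BL/6J, while the 3T3-L1 line is generally described as Swiss. Both cultures carried the same donor record, so the spread between them may be technical. With no control group among the libraries, no group comparison was possible, and all values below are descriptions. The depth of the libraries was unknown.

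Coding exons are read as protein, and their DNA can also be bound by transcription factors, so that 1 stretch of sequence may carry both codons and a regulatory element. Enhancers inside exons are known from developmental genes, where an exon of a gene can act on that gene or on a neighbour. In adipocytes the best known regulators of open chromatin are PPAR-gamma, which binds with RXR to a direct repeat, the C/EBP factors, nuclear factor I (NFI) and the Fos and Jun dimers of AP-1. CTCF, a zinc finger protein that organises chromatin loops, is bound in most cell types.

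The following coding sequences show what such sites look like at genes of the adipocyte and at high-ranked sites with a motif. Foxn2, Cdk14 and Nup107 are the highest-ranked with their motif whole in the exon, while the Rfc1 site, picked after values were seen, leads for NFI outside a dense segment of chromosome 10 described below, where no UTR reaches into the printed stretch. Each is the part of the site that lies in the coding exon, within at most 150 bp around the centre, read along the gene from the GRCm38 assembly, and the capitals mark a motif match. Pparg, which encodes the receptor that directs adipocyte differentiation, Fabp4, the fatty acid carrier, and Irs2, an adaptor of the insulin receptor, held none of the 5 motifs of adipocyte factors and CTCF in the windows searched.
Pparg, coding exon 5 of 7, chr6:115463086-115463205, plus strand: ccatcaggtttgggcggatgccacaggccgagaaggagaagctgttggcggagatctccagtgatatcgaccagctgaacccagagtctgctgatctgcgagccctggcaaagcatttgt
Fabp4, coding exon 3 of 4, chr3:10205256-10205342, minus strand: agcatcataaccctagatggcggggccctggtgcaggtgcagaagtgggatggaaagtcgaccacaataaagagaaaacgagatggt
Fabp4, coding exon 2 of 4, chr3:10206036-10206122, minus strand: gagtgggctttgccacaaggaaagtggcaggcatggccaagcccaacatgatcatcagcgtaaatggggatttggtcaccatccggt
Irs2, coding exon 1 of 2, chr8:11007106-11007255, minus strand: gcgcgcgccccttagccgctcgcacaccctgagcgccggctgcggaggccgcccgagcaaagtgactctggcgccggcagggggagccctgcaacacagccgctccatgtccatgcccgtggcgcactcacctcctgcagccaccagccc
Klf4, coding exon 3 of 5, chr4:55530346-55530495, minus strand, with the CTCF core in capitals: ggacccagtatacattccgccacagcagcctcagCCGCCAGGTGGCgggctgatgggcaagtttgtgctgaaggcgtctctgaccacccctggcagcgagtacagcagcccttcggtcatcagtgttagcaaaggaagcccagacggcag
Foxn2, coding exon 1 of 5, chr17:88462826-88462975, plus strand, with the PPAR-RXR repeat in capitals: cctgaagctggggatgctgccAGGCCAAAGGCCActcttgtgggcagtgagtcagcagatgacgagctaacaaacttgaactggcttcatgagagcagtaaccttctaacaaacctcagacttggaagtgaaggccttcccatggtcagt
Cdk14, coding exon 4 of 14, chr5:5227164-5227255, minus strand, with the AP-1 motif in capitals: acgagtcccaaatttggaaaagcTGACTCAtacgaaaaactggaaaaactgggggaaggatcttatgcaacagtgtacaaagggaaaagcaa
Nup107, coding exon 10 of 28, chr10:117777136-117777217, minus strand, with the C/EBP matches in capitals: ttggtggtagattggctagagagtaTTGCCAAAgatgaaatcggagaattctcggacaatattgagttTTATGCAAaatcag
Rfc1, coding exon 13 of 25, chr5:65279457-65279535, minus strand, with the NFI half-site in capitals: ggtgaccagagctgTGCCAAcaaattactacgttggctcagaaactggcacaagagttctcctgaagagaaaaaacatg

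The labelled cell type was checked against promoters. A peak of each replicate lay within 1000 bp of a start of 9 of 10 adipocyte marker genes (all but Lep) and of 5 of 6 preadipocyte or fibroblast markers (all but Dlk1). None of 5 markers of other lineages (Ptprc, Pecam1, Myod1, Alb and Epcam) had such a promoter. Over all 20722 autosomal protein-coding genes the share was 56.6%, below those of both the adipocyte and the preadipocyte set. With 10 and 6 genes, the check does not tell adipocytes from preadipocytes. The peak lists of replicates 1 and 2 had 133695 and 216556 entries on assembled chromosomes. Each peak carries the authors' own value, a whole number from 1 to 150 on a scale that the sources used here do not give, so values served to rank peaks within a list, with a percentile of 100 for the highest.

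Coding exons held a small share of the distal accessible sites. Of 93041 distal shared sites, those with all protein-coding starts over 1000 bp away, 1.26% were coding-exon sites (exact binomial 95% interval 1.19 to 1.34, counting error only), 2.17% lay in untranslated (UTR) exons, 47.2% in introns and 49.3% in intergenic sequence. In the replicates' own peak lists the coding-exon share was 1.25% in replicate 1 (1272 sites) and 1.44% in replicate 2 (2502 sites), a mean of 1.34% ± 0.134 (SD, n = 2). Per length of annotation the classes were closer. There were 41.7 coding-exon sites per Mb over 28.2 Mb of distal coding sequence, 50.7 intronic sites per Mb of intron and 65.0 sites per Mb of UTR exon. Coding sequence thus held 0.824 times the site density of introns, and 0.817 and 0.935 times in the lists of replicate 1 and replicate 2 alone. How much of each class could be mapped uniquely was not measured here.

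Coding-exon sites had median ranks near those of intronic and intergenic sites. Their share in the top 10% was lower than that of intergenic and UTR sites and close to that of intronic sites. Their values ran from 8 to 140 in replicate 1, with a median of 44, and from 26 to 150 in replicate 2, with a median of 88. The median percentiles were 48.5 and 68.1, against 48.5 and 67.3 for intronic sites, 49.98 and 68.1 for intergenic sites and 54.1 and 71.2 for UTR sites. The top 10% of the replicate 1 list held 4.84% of coding-exon sites, 5.53% of intronic, 6.68% of UTR and 7.12% of intergenic sites. For replicate 2 these shares were 10.03%, 10.31%, 12.02% and 12.15%. In the top 10% of both lists there were 54 coding-exon sites (4.59%). Across these sites the values of the replicates had a Spearman correlation of 0.925, which describes sites called in both libraries. Of the coding-exon peaks of replicate 1, 91.2% (89.5 to 92.7) overlapped a peak of replicate 2, close to the 91.5% of other distal peaks. In the longer list of replicate 2, 46.5% (44.5 to 48.4) of coding-exon peaks had a partner, compared with 53.1% (52.9 to 53.4) of other distal peaks and 71.0% of promoter peaks. The sites of every distal class all lay in a hotspot, a broader region of raised cutting, in both replicates. The −log10 q of that hotspot stood at its ceiling of 100 for 49.1% of coding-exon sites in replicate 1 and 83.5% in replicate 2, against 48.6% and 80.6% of intronic sites and 52.9% and 81.5% of intergenic sites.

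**Figure D1:**
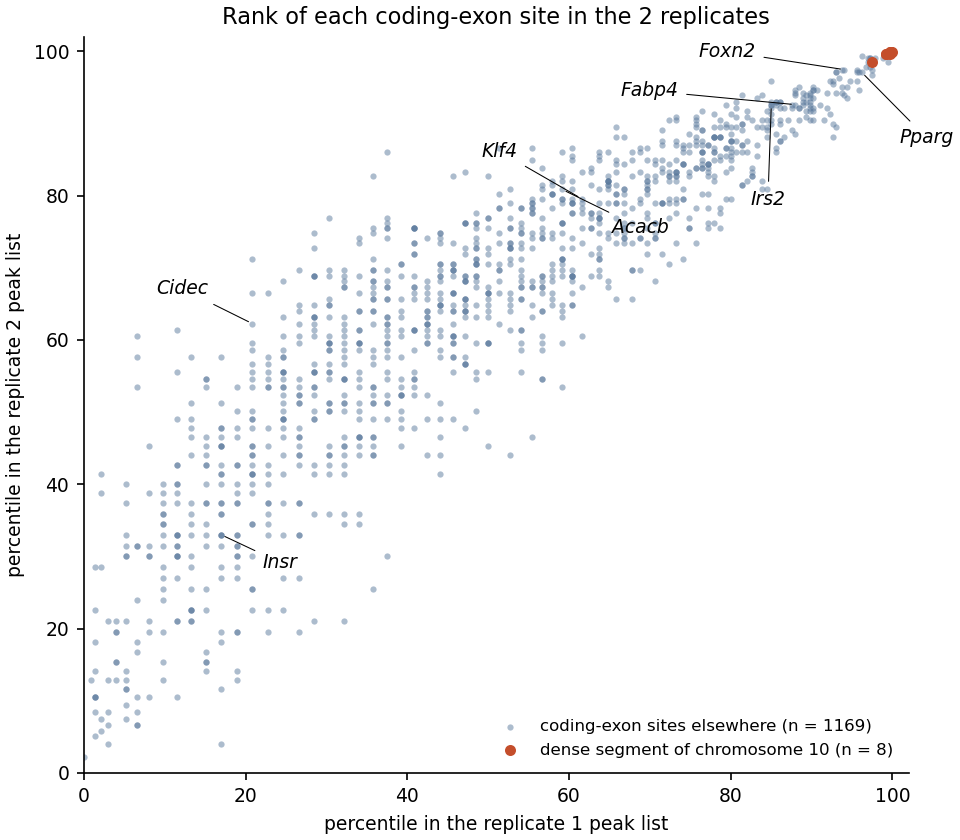
Percentile of each of the 1177 coding-exon sites in the peak list of replicate 1 (x axis) and of replicate 2 (y axis), 1 point per site, with the 8 sites of a dense segment of chromosome 10 in orange and some genes of the text named. The points follow a rising band, the segment's sites lie at its upper end, and Pparg and Foxn2 rank above Insr and Cidec in both lists.

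The highest-ranked sites came largely from 1 stretch of chromosome 10. Of the 10 sites with the highest mean percentile, 7 lay between 117000001 and 118000000 on that chromosome, a Mb that held 713 shared sites of any class, compared with a median of 44.5 per Mb over the autosomes and 201 in the next densest Mb. Cpm, which encodes the membrane enzyme carboxypeptidase M, had 4 sites there. The highest, chr10:117675876-117676025, had values of 140 in replicate 1 and 150 in replicate 2. Mdm2, the ubiquitin ligase of p53, had a site in its last coding exon at chr10:117690436-117690725 with values of 136 and 150. Nup107, a nuclear pore subunit, had 2 sites with values of 131 and 148 and of 126 and 148, and Lyz1, a lysozyme gene, had 1 with values of 116 and 144. The part of this density in the ranks was not tested. Without these 8 sites the correlation of the replicates' values was 0.923 and the median replicate 2 percentile was again 68.1.

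Outside that segment, a set taken after its values had been seen, the 10 highest sites lay in genes of varied function. They included a single-exon gene, B430305J03Rik, with values of 124 and 146. Bspry followed with 128 and 144. Magi2, which encodes a scaffold protein of cell junctions, had a site in the last of 22 coding exons with values of 118 and 146. Cacna1a, a calcium channel gene, had a site in the last of 47 coding exons at chr8:84639536-84639705, with values of 115 and 146, a GC content of 79.3% and 31 CpG dinucleotides in the central 150 bp. A site in coding exon 3 of 6 of the transcription factor gene Tfap2a had values of 114 and 146, and it held 18 CpG. The others were sites in Spaca6 (115 and 146), Cdk14 (115 and 142) and Capn2 (116 and 141), and 2 sites in Plin4. Among these, the centres in Magi2, Tfap2a, Spaca6 and Capn2 lay 96, 31, 50 and 8 bp from the start of an annotated transcript that was not protein-coding.

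Few of the sites were coding sequence from end to end. The intervals were 150 to 470 bp long with a median of 170 bp, and internal coding exons at the sites had a median length of 159 bp. A median of 76.7% of a site's bases was coding. There were 341 sites (29.0%) wholly in coding sequence, 746 (63.4%) reached into an intron, 146 reached into a UTR, and 106 (9.01%) were less than 50% coding. The centres did not gather at exon edges: 67.0% lay within 75 bp of one, against 67.9% of 188078 coding positions spaced every 150 bp along the same distal coding sequence. Of the centres, 2 lay in the coding sequence of 2 genes.

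Site density was highest close to starts and in first coding exons. Sites 1 to 2 kb from a protein-coding start numbered 204, which was 17.3% of the sites (15.2 to 19.6) but 8.55% of the coding positions, or 12.7 sites per 1000 positions (exact Poisson 95% interval 11.0 to 14.6). Farther out the density lay between 4.84 and 6.20 per 1000, with no steady trend up to the sites more than 50 kb away. By kind of exon, the density was 10.05 per 1000 positions in first coding exons (76 sites, 7.92 to 12.6), 5.81 in internal ones (810 sites, 5.41 to 6.22), 7.10 in last ones (236 sites, 6.22 to 8.06) and 7.10 in genes with a single coding exon (55 sites, 5.35 to 9.24). Of the sites in first coding exons 60.5% lay within 2 kb of a start, against 11.2% of internal, 12.7% of last and 67.3% of single-exon ones. Exon kind and distance were not separated here. Last coding exons held 20.1% of the sites (17.8 to 22.5) and 17.7% of the positions. Around the distance limit itself, 39 shared sites centred in coding sequence lay 900 to 1000 bp from a start and were left out, and 28 lay at 1000 to 1100 bp and were kept. Their median replicate 2 percentiles were 68.9 and 71.2.

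**Figure D2:**
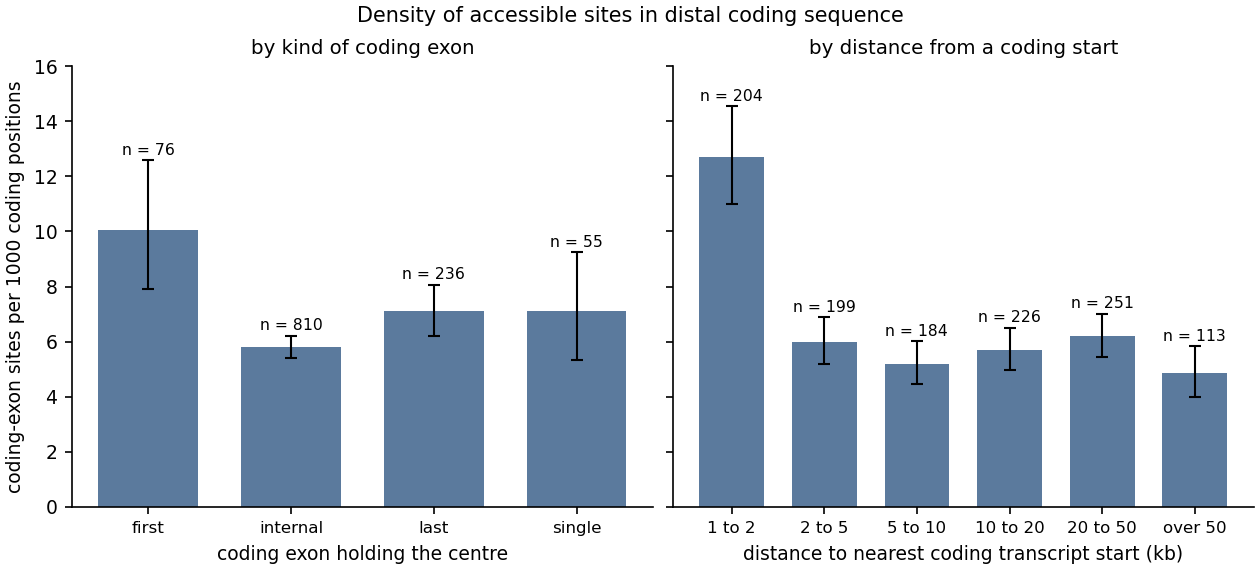
Coding-exon sites per 1000 evenly spaced coding positions (y axis), by the kind of coding exon that held the centre (left) and by distance in kb to the nearest protein-coding transcript start (right). Bars are sites over positions, lines are exact Poisson 95% intervals, and n is the number of sites; the bar at 1 to 2 kb reaches 12.7, above all bars farther out.

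Starts of transcripts that are not protein-coding also lay near many of the sites. Such a start was within 1000 bp of 222 coding-exon sites (18.9%), of 15.3% of coding positions and of 7.58% of intronic sites. Whether such transcripts are made in these cells was not tested.

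The sites were somewhat richer in GC than closed coding sequence and than intronic sites. The median GC content of the central 150 bp was 52.7% in coding-exon sites, 50.7% in 180439 coding windows that touched no peak or hotspot of either replicate (closed coding windows below) and 48.7% in intronic sites. The median number of CpG was 3, 3 and 1. At least 10 CpG were found in 92 coding-exon sites (7.82%), in 3.49% of closed coding windows and in 0.610% of intronic sites. Those 92 sites had median percentiles of 63.7 and 79.9, compared with 47.1 and 67.3 for the other 1085. Of the 92, 59.8% lay within 2 kb of a protein-coding start and 23.9% in single-exon genes, so composition and position cannot be told apart here. Repeats masked in the assembly covered over 50% of 0.680% of coding-exon windows and of 5.06% of intronic ones.

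Motifs of several adipocyte factors and of CTCF were more frequent in coding-exon sites than in closed coding windows. Matches were searched by letters on both strands of the central 150 bp, which for CTCF means the core CCNNNAGNNGGC. The core was present in 16.9% of coding-exon sites (14.8 to 19.2), 3.03% of closed coding windows and 12.4% of intronic sites (12.1 to 12.7). The NFI half-site TTGGCA was present in 24.5% (22.0 to 27.0), 9.51% and 22.2%. For C/EBP, with the letters TTGCNNAA, the shares were 12.3% (10.5 to 14.3), 5.83% and 13.0%. AP-1, with TGANTCA, reached 6.63% (5.27 to 8.20), 3.32% and 9.90% (9.62 to 10.2), so its interval lay above the share of closed coding windows and below that of introns. UTR exon sites had the CTCF core in 16.3%, the NFI half-site in 20.5%, C/EBP in 11.4% and AP-1 in 7.82%. All but the NFI share lay within the interval of coding-exon sites, so the contrasts with introns are not particular to coding exons. At least 1 of these 4 motifs or the PPAR-RXR repeat occurred in 579 coding-exon sites (49.2%), 19.8% of closed coding windows and 48.5% of intronic sites. These motifs can overlap, as in the Nup107 sequence above, where TTGCCAAA is a C/EBP match and holds the NFI half-site on the opposite strand.

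The shares differed between the replicates' own lists for some motifs. The CTCF core was found in 15.4% of the coding-exon sites of replicate 1 and 11.99% of those of replicate 2 (mean 13.7% ± 2.42, SD, n = 2), and the NFI half-site in 22.5% and 20.7%. AP-1 was at 6.60% and 6.35% and C/EBP at 11.3% in both. All of these own-list shares lay above those of closed coding windows. For the CTCF core, the NFI half-site, AP-1 and C/EBP the contrast with closed windows was also seen within classes of GC content. Below 50% GC the CTCF core was in 11.0% of 426 sites and 1.07% of closed windows, and at 50% GC or more it was in 20.2% of 751 sites and 4.62% of closed windows. Sites with the core had a median replicate 1 percentile of 55.4, against 47.1 for sites without it, and the medians of replicate 2 were 69.7 and 68.1. With the sites divided by mean percentile into 4 equal classes, the core's share from the weakest to the strongest was 13.9%, 14.6%, 22.1% and 17.0%, and that of AP-1 was 6.78%, 5.78%, 6.80% and 7.14%.

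The remaining motifs lay closer to the level of closed coding sequence, and for all but the E-box the interval of the coding-exon share held that level. The glucocorticoid receptor motif (ACANNNTGT) was in 4.76% of sites and 4.10% of closed coding windows, TEAD (ACATTCC) in 2.21% and 2.00%, RUNX (TGTGGTT) in 2.72% and 2.57%, and ETS (CCGGAAG) in 1.95% and 1.89%. The E-box (CANNTG) was in 63.7% and 58.5%, the GC box (GGGCGG) in 5.18% and 4.11%, forkhead (TGTTTAC) in 2.04% and 1.43%, and EBF (TCCCNNGGGA) in 0.340% and 0.401%. The GC classes could differ from this. Below 50% GC forkhead was in 4.69% of 426 sites and 2.41% of closed windows, and the E-box in 66.2% and 56.1%. At 50% GC or more forkhead was in 0.533% of 751 sites and 0.644% of closed windows, and the E-box in 62.3% and 60.4%. In intronic sites the shares were 4.35% for RUNX, 3.17% for TEAD, 1.14% for EBF and 0.692% for ETS. No test was made of these differences.

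**Figure D3:**
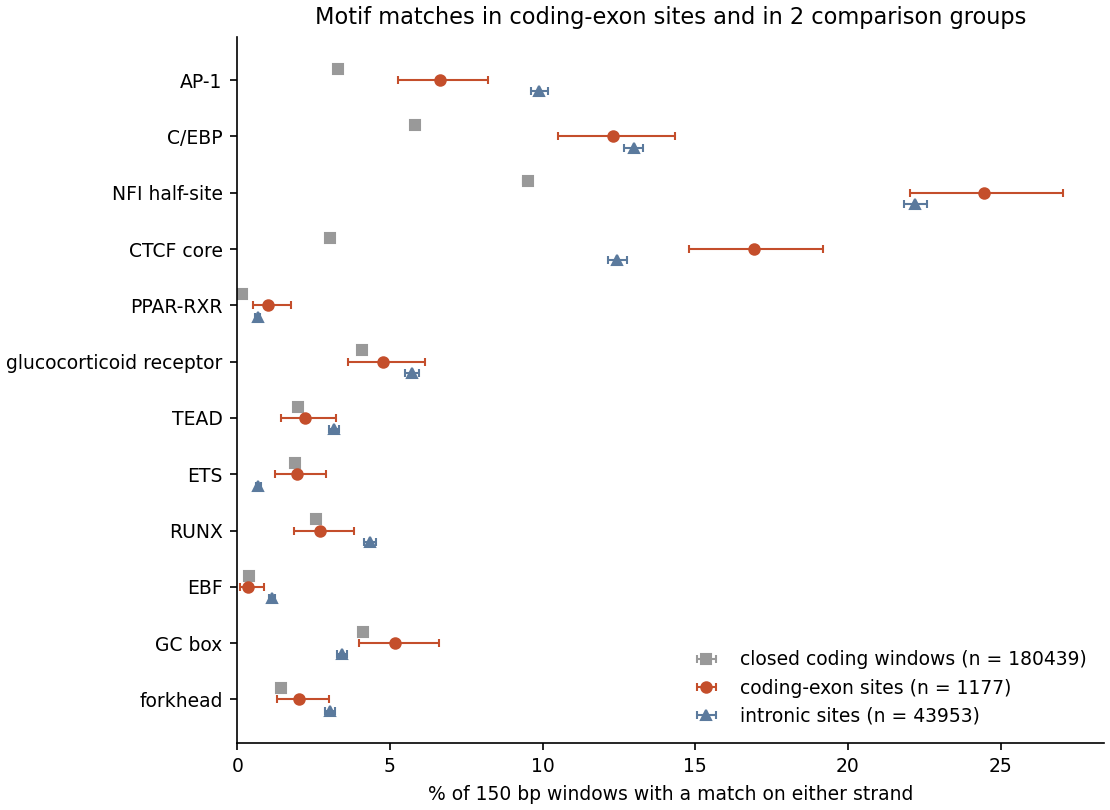
Share of 150 bp windows with a match to each of 12 motifs on either strand (x axis, %), in coding-exon sites (orange circles), closed coding windows (grey squares) and intronic sites (blue triangles), with exact binomial 95% intervals; the E-box, at 63.7% of coding-exon sites, is left out for scale. For the first 5 motifs the orange circles lie to the right of the grey squares, and for AP-1 they lie to the left of the blue triangle.

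The PPAR-RXR repeat was rare. It occurred in 12 coding-exon sites (1.02%, 0.528 to 1.77), 0.163% of closed coding windows, 0.671% of intronic sites and 1.04% of UTR exon sites. In the own lists of replicates 1 and 2 its share was 1.02% and 0.600%. The highest of the 12 was in Foxn2, a forkhead factor gene, with values of 104 and 141 (percentiles 94.1 and 97.4), and the lowest was in Nacc2 with 18 and 48. The other genes were Dysf, Slc43a1, Urb1, Prune1, Mpdz, Adamtsl4, Msln, Ybx3, Xirp1 and Dennd5a. Below 50% GC the repeat was in 0% of 426 coding-exon sites and 0.0891% of closed coding windows. At 50% GC or more it was in 1.60% of 751 sites and 0.224% of closed windows. In 8 of the 12 sites the match lay whole in the coding exon. The letters of 4 of these show how far the matches differ at the free positions, each read 5′ to 3′ on the strand of the match.
Foxn2, chr17:88462847-88462859: AGGCCAAAGGCCA
Slc43a1, chr2:84860094-84860106: AGGACAAAGGCCA
Urb1, chr16:90753602-90753614: AGGGCAGAGGTCA
Msln, chr17:25751699-25751711: AGGTCACAGGCCA

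A match inside an exon is also read in codons, and AP-1 matches took 2 of the 3 frames. Of 56 AP-1 matches with a known frame in coding-exon sites, 0 began at the first codon position, 23 at the second and 33 at the third. In closed coding windows the counts were 0, 2164 and 2296 of 4460. TGANTCA begins with the letters of a stop codon and reads the same way on both strands, so a match that began at the first codon position would read as a stop, and none was found there in either kind of window. CTCF cores ran along the gene in 42.1% of 171 matches in sites (34.6 to 49.9) and in 53.6% of 4795 matches in closed coding windows (52.2 to 55.0). For NFI half-sites the shares were 36.8% and 38.4%, and for C/EBP 53.4% and 50.9%.

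Among 20722 autosomal protein-coding genes, 1073 had a coding-exon site, a background of 5.18%. Of these, 986 had 1 site, 74 had 2 and 13 had 3 or more. Genes with a site had a promoter peak in both replicates in 76.4% of cases (73.8 to 78.9), compared with 55.5% of the other genes. They also had more coding sequence beyond 1000 bp of a start, with a median of 1935 bp against 942 bp. Of all 20722 genes, 18667 had any such distal coding sequence, and only these could hold a site. Among the 18667, the share with a site rose with that length, from 1.83% at up to 500 bp to 20.8% above 4000 bp. The density meanwhile fell from 67.0 to 39.0 sites per Mb.

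Transcription factors of adipogenesis had a coding-exon site in 3 of 26 genes (11.5%), although 25 of the 26 had a promoter peak in both replicates. Their density was 89.9 sites per Mb over 33.4 kb of distal coding sequence, against 41.6 for all genes. Pparg had the highest of the 3 sites, chr6:115463036-115463225, with values of 111 in replicate 1 and 140 in replicate 2, in the top 10% of both lists. Its centre lay at codon 222 of 505, 41.1 kb from the nearest protein-coding start. Stat5b, a signal transducer that acts with growth hormone in adipogenesis, had a site with values of 72 and 116. Klf4, a factor of the early phase of differentiation, had one with values of 54 and 104 at chr4:55530336-55530505. The CTCF core of that site, CCGCCAGGTGGC, ran along the gene and began at the first position of a codon. Cebpa, Cebpb, Rxra and the other 20 genes of the list had none. A gene whose coding sequence lies within 1000 bp of a start cannot hold a site under the rule. The length of distal coding sequence in each of these genes is not given here, so nothing is read from the absence.

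Genes of lipid storage and lipolysis had sites in 3 of 24 genes (12.5%) but 9 sites in all, or 399.8 sites per Mb of their distal coding sequence against 41.6 for all genes. Plin4 supplied 6 of them. Without Plin4, the 3 sites of Fabp4 and Cidec made 162.4 per Mb over 18.5 kb, a short stretch on which 1 site weighs much. Fabp4 had sites in coding exons 2 and 3, chr3:10206036-10206185 with values of 86 and 128 and chr3:10205216-10205445 with values of 89 and 129, centred at codons 29 and 86 of 132. Cidec, which fuses lipid droplets, had a site with values of 28 and 81 that held an NFI half-site, and it ranked at the percentiles 20.8 and 62.3. The −log10 q of its hotspot was 1.52 in replicate 1 and at the ceiling of 100 in replicate 2.

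In fatty acid and triglyceride synthesis 2 of 22 genes had a site. That of Acacb, the acetyl-CoA carboxylase at mitochondria, lay at chr5:114248176-114248325 with values of 52 and 106, and held 2 matches to the CTCF core, CCACCAGGTGGC along the gene and CCTTCAGCTGGC on the opposite strand. Scd1, the stearoyl-CoA desaturase, had one with values of 43 and 88 in its last coding exon. Among adipokines and the insulin response 4 of 22 genes (18.2%) had a site, or 102.4 sites per Mb over 39.1 kb. Irs2 had the highest, chr8:11007096-11007265 with values of 83 and 129, 1277 bp from the start. Irs1, the related adaptor, had a site at 41 and 90. Pik3ca, a lipid kinase subunit, had one at 35 and 58. The insulin receptor gene Insr had one at 26 and 56, with an AP-1 match, TGACTCA. Irs2, Irs1, Pik3ca and Insr thus ran from the percentile 85.0 down to 17.0 in replicate 1. The hotspot of the Insr site had a −log10 q of 1.60 in replicate 1 and 3.00 in replicate 2, where the lowest of either list was 1.302. For Irs2, Irs1, Scd1 and Pik3ca it was 3.22, 1.65, 2.18 and 6 in replicate 1 and at the ceiling of 100 in replicate 2. For Acacb it was at the ceiling in both.

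Among the lists grouped by function, the highest shares of genes with a site were those of chromatin and of cytoskeleton genes, with 168.0 and 151.5 kb of distal coding sequence. Chromatin and transcription machinery had a site in 9 of 26 genes (34.6%), with 11 sites, among them Kmt2a, a histone methyltransferase (66 and 108), the acetyltransferase gene Ep300 with 2 sites (65 and 109, 49 and 97), and Ncoa2, a coactivator of nuclear receptors (52 and 109). Per length this came to 65.5 sites per Mb. Cytoskeleton and adhesion had 5 of 22 genes (22.7%) and 52.8 per Mb, led by Sptan1, a spectrin (58 and 119), and Dst had 3 sites in 27814 bp of distal coding sequence. Preadipocyte and matrix genes had 3 of 26, with Prrx1, a homeobox factor of mesenchyme, highest (55 and 111), and 39.4 per Mb. Genes of other lineages had 2 of 26, Ttn and Myog, at 12.97 sites per Mb over 154.2 kb. Ttn alone, with 1 site, made up 106088 bp of that length, so the density is largely that of 1 gene. With 2 to 11 sites per list, these densities have wide counting errors, and no list was tested.

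Gene families also differed. Zinc finger genes had a site in 26 of 458 (5.68%), close to the background share of genes. Their density was 32.0 sites per Mb, against 41.6 for all genes, and the highest site was in Zfp91 (105 and 131). Olfactory receptors had 1 of 1127 (0.0887%), in Olfr1 (26 and 47). With only 112.1 kb of distal coding sequence in all, that made 8.92 sites per Mb, against 41.6 for all genes. Collagen genes had 4 of 43 (27.0 sites per Mb) and clustered protocadherins 2 of 57 (41.0 sites per Mb). Hox genes, which pattern the body axis, had 3 of 39, with 2 sites each in Hoxa2 and Hoxb2 and 1 in Hoxc10. Their distal coding sequence was 14.2 kb in all, which gave 351.5 sites per Mb. All 5 of these Hox sites lay in the last coding exon, and the highest was in Hoxa2 (82 and 127). In Hoxa2 the last coding exon, of 737 bp, was all of the distal coding sequence, so the distance rule left no other exon. Hoxb2 and Hoxc10 had 677 and 275 bp of distal coding sequence, and whether any of it lay in another exon was not examined. No preference for last exons can be read from these Hox sites.

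**Figure D4:**
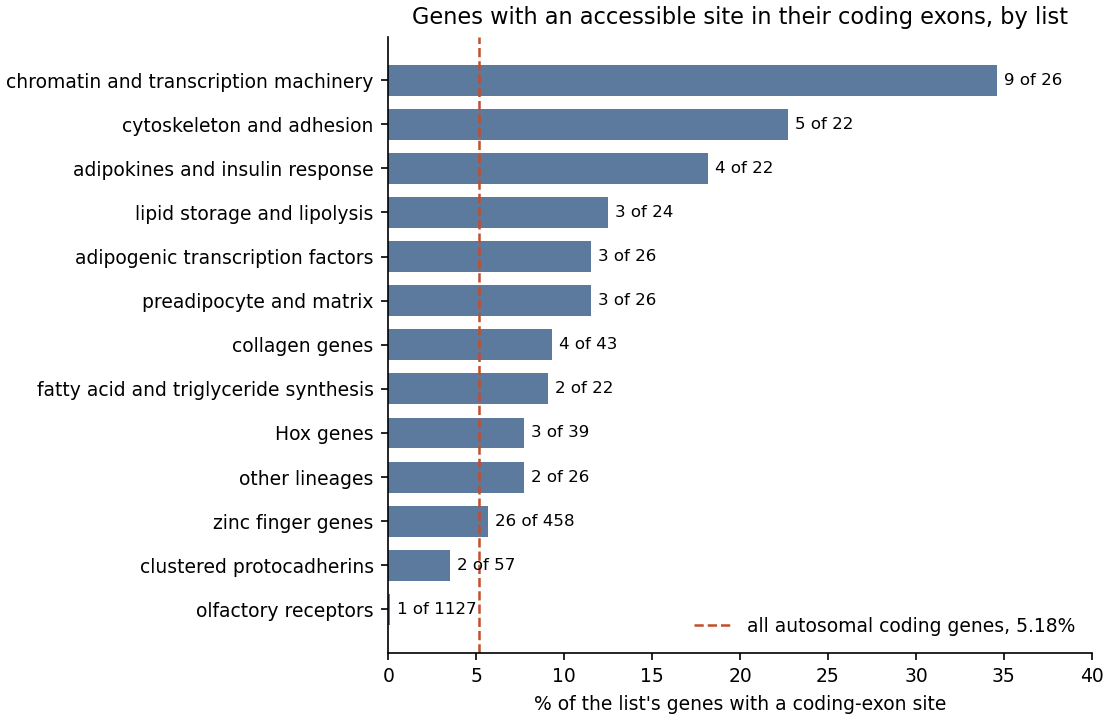
Share of the autosomal genes of each list or family with at least 1 coding-exon site (x axis, %), with the number of genes beside each bar and the share over all autosomal protein-coding genes, 5.18%, as a dashed line. Chromatin and transcription machinery has the longest bar at 34.6%, and olfactory receptors have the shortest at 0.0887%. The bars do not account for the length of distal coding sequence, which differs between lists.

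Plin4, which encodes a perilipin of lipid droplet surfaces, had more coding-exon sites than any other gene of the autosomes. The gene lies on the minus strand of chromosome 17, and its protein is known for a long run of repeated helical units. There were 4 sites in a coding exon of 2106 bp, the fifth of 8, and 2 in one of 1258 bp before it. From the start of the gene to its end, the values were 68 and 110, 59 and 106, 75 and 111, 89 and 132, 114 and 144, and 111 and 147 in replicates 1 and 2. Both replicates thus had the higher values in the 3 sites nearest the 3′ end. Another 8 shared sites lay in or within 2 kb of the gene outside the coding-exon set. All 6 were wholly coding, and none lay within 2 kb of the start.

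Much of this coding sequence was built from near-copies of 99 bp. Bases 99 bp apart were identical in 62.4% of the longer exon and 73.9% of the shorter one, against a median of 25.3% at other distances. The highest identity in both exons was at 297 bp, with 63.8% and 77.1%. The copies below show how alike the sequence at 4 of the sites is. The middle of each copy lies in its site but not always at the site's centre, and the second copy runs past the site's end. The first is the central stretch of the site chr17:56103876-56104145, and in the others capitals mark bases that differ from it.
Plin4, chr17:56103962-56104060, minus strand: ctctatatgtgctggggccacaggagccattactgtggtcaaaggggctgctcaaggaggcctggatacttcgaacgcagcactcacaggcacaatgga
Plin4, chr17:56104259-56104357, minus strand: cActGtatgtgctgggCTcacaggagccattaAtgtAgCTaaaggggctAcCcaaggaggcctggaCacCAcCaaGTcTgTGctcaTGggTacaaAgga
Plin4, chr17:56104853-56104951, minus strand: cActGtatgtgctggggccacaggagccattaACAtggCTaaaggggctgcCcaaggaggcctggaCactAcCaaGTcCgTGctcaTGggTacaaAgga
Plin4, chr17:56106635-56106733, minus strand: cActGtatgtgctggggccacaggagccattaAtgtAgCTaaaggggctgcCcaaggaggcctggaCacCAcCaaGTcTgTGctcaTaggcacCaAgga
Identity to the first was 76.8%, 79.8% and 80.8%. The site nearest the start reached 57.6%. The site nearest the 3′ end, at 41.4%, did not match the copies. The sources used here do not give how reads that fit several copies were placed, so the height of a single site within the copies is uncertain, and the part of the repeats in these values was not tested.

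**Figure D5:**
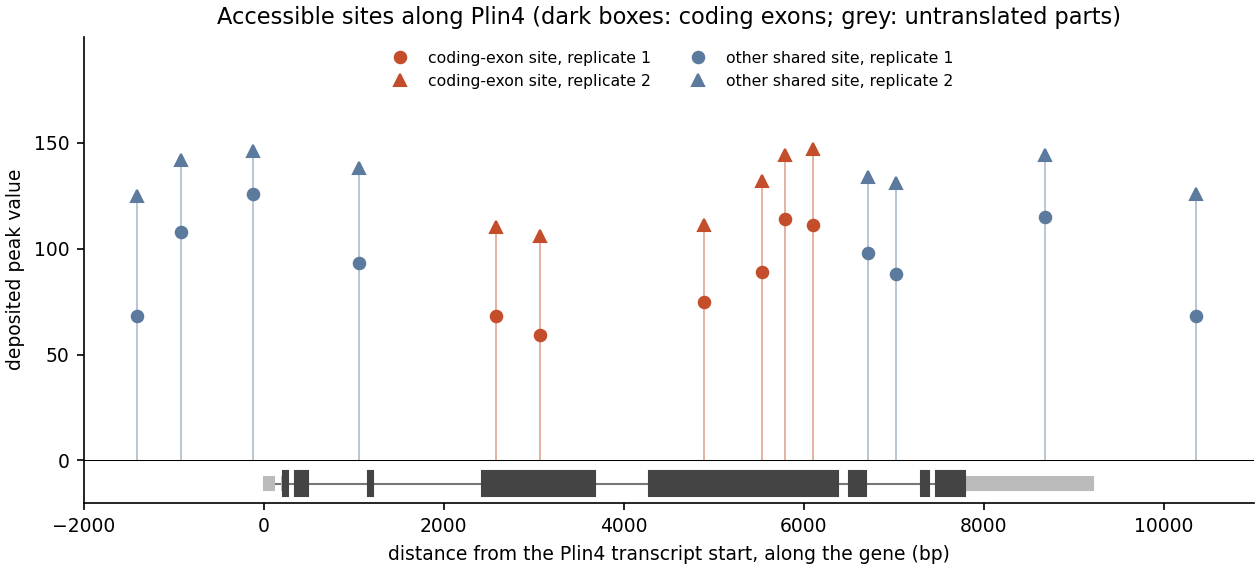
Deposited peak values (y axis, unstated scale up to 150) of the shared sites along Plin4, by distance in bp from the transcript start in the direction of the gene, with circles for replicate 1 and triangles for replicate 2. The 6 coding-exon sites (orange) stand over the 2 longest coding exons (dark boxes below the axis), and the 8 other shared sites (blue) flank them.

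Cpm followed with 4 sites, all in the dense segment of chromosome 10. Another 11 genes had 3 sites. Among them, Irf2bpl, a single-exon gene, had values of 75 and 118, 36 and 90, and 29 and 73. Tob1, an antiproliferative gene with 1 coding exon, had 40 and 81, 37 and 82, and 28 and 68. Syne1, which encodes a giant protein linking nucleus and cytoskeleton, had its 3 sites spread over coding exons 46, 54 and 117 of 145, with values of 32 and 58, 90 and 135, and 50 and 78.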

How the data were processed

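DNase-seq peaks and hotspots of 2 replicates were used as deposited. Per the text lists deposited with each library, the build was mm10 and each region list came from 1 alignment, so the authors called regions in each library without pooling. For the caller, aligner, filters and depth, the sources used here give nothing. The deposited peak value is a score from 1 to 150 with no stated scale, used as a rank within its list, and the deposited hotspot value is the −log10 of a q value with a ceiling of 100. Identical lines (20 and 33 peaks) were counted once, and 337 and 603 peaks off the assembled chromosomes were left out.

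Peaks were merged at an overlap of at least 1 bp and annotated with GENCODE M21. A centre in CDS, then in another exon, then in an intron set the class, and the exon number came from the transcript with the longest CDS. A site's value in a replicate is that of its highest peak there. Sequence came from the RefSeq copy of GRCm38. Shares carry exact binomial and densities exact Poisson 95% intervals, which cover counting error only. Scripts used Python 3.11.15, numpy 2.4.6, pandas 2.3.3 and scipy 1.17.1, and were tested on simulated data. With 1 group no test between groups was possible.

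Named sites were the 10 with the highest mean percentile, those of the 3 genes with the most sites (ties by the best percentile), the highest of each gene list, and the highest with each of 5 motifs whole in the exon. Further members of lists, the genes with 3 sites, the sites outside the dense segment and the 4 printed PPAR-RXR matches were chosen after their values were seen. The coding-exon set, gene lists and motifs were chosen with earlier results of these data known. Alternatives covered the overlap, each replicate alone, the stronger peaks, the start distance, the centre rule, the annotation and the motif window.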

Additional observations from a re-analysis of the deposited data

Results flagged for a closer look

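Chromosome X was outside the set described above. There, 30 shared sites were centred in coding exons with all protein-coding starts over 1000 bp away, of 2557 distal shared sites on that chromosome, and they drew attention because no comparison used them. On chromosome Y there were 0 such sites.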

How the results depend on the processing

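Of 69 alternative values of the 7 main results, 39 stayed within the replicate spread or within 1.5 times the main count, and 30 moved. The number of sites, 1177, was 549 with the stronger 50% of each list and 341 with the whole interval in coding sequence, and 1272 to 2502 with 1 replicate alone. The share of distal sites, 1.26%, was 1.46% with starts at 500 bp, 1.07% at 2500 bp, 0.367% with whole intervals, 1.10% with starts of all transcripts and 1.25 to 1.44% with 1 replicate. The density ratio to introns, 0.824, was 0.239 with whole intervals, a rule that removed coding-exon sites and no intronic ones. It was 0.817 to 0.935 with 1 replicate, and below 1 in each of the other settings. Genes with a site, 5.18%, were 2.49% with stronger peaks, 1.48% with whole intervals and 5.45 to 9.70% with 1 replicate. The last-exon share, 20.1%, was 19.4% with an overlap of 50%, 21.1% with stronger peaks, 17.5% at 500 bp, 20.4% at 2500 bp, 27.0% with whole intervals, 18.7% with basic transcripts, 22.7% with starts of all transcripts and 20.2 to 20.5% with 1 replicate. The AP-1 share, 6.63%, was 6.91%, 5.81% at 500 bp, 8.19% at 2500 bp, 4.99% with whole intervals, 6.31% with basic transcripts, 7.33% with all starts and 6.35 to 6.60% with 1 replicate, where the first value is for an overlap of 50%. The median replicate 2 percentile, 68.1, was 82.6 with stronger peaks and 46.5 in replicate 2 alone, whose list is longer. Fewer sites follow from stricter rules by construction. So do the lower share of distal sites, density ratio and share of genes with whole intervals. For the other moves the cause was not tested. For the other 12 motifs, 70 of 132 alternative values moved by more than the replicate spread. Leaving out the dense segment of chromosome 10, chosen after seeing the data, kept each of the 7 main results within that spread. No paired analysis was possible because there was 1 group. Unknown depth limits any statement on weak sites.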
